A study of Mus musculus with 2 samples.

Results

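The 8 genes described here are Yap1, Wwtr1, Tead1, Lats2, Amotl2, Ccn1, Ccn2 and Ankrd1, which belong to the YAP and TEAD branch of Hippo signalling or are its standard targets. They were taken by gene symbol, with every probe each has on the array, from 16593 genes with a probe. The set was selected on a known pathway with the intensities and ratios of these same arrays in view, so the members' own ratios are given as descriptions. RNA of mouse back skin keratinocytes was hybridized to 2 Illumina expression arrays, 1 per genotype. The control pool, CON, came from C57BL6 mice with floxed Med1 alleles (MED1 fl/fl) and no Cre. The Med1cKO pool came from littermates with the same floxed alleles and Cre driven by the keratin 14 promoter, which is active in basal keratinocytes. Cells of 3 mice were pooled for each genotype and sorted as integrin alpha6 positive and CD34 negative, although some protocol fields speak of RNA from whole skin of single mice. Ages were not given in the sources used here. Each value therefore describes 1 pool, there is no replicate error, and no difference below has a test or a p-value.

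YAP (Yap1) and TAZ (Wwtr1) are transcriptional coactivators that cannot bind DNA themselves and reach their targets through TEAD factors. The kinase LATS2, activated by the Hippo kinases, phosphorylates YAP and TAZ and holds them in the cytoplasm, and the angiomotin-like scaffold AMOTL2 also binds and retains YAP. In the epidermis YAP is known as a promoter of basal cell proliferation, and Ccn1, Ccn2 and Ankrd1 are the genes most often read as its output. LATS2 and AMOTL2 are themselves YAP targets and so form negative feedback. Med1, the deleted gene, encodes a subunit of Mediator, the complex between DNA-bound activators and RNA polymerase II.

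The members did not move as 1 group. Ccn2 was 2.0-fold lower in the Med1cKO pool and Yap1 1.44-fold lower, while Ccn1 was 1.22-fold higher and Wwtr1 1.30-fold higher. Ankrd1 was detected in the CON pool only and Amotl2 in the Med1cKO pool only, both close to background. Of all 7955 detected genes, 245 were detected in CON only and 528 in Med1cKO only. Tead1 and Lats2 were detected on neither array. A gene is called detected at a detection p below 0.01, and folds are after background correction unless stated. A fold written as at least a value is a bound only on that corrected scale, and the deposited intensities, which hold the background on both arrays, can differ by less. Of the 12 probes for the 8 genes, 7 were detected on both arrays, 2 on 1 array and 3 on neither. Of the 6 detected genes, 1 was at least 2-fold lower, where 1.81% of all 7955 detected genes were, and 0 were at least 2-fold higher, where 3.95% were (5.76% differed that much in either direction). These 6 split evenly, with 3 log2 ratios (Med1cKO minus CON) above 0 and 3 below, and their median was -0.12 against -0.04 for all detected genes.

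**Figure D1:**
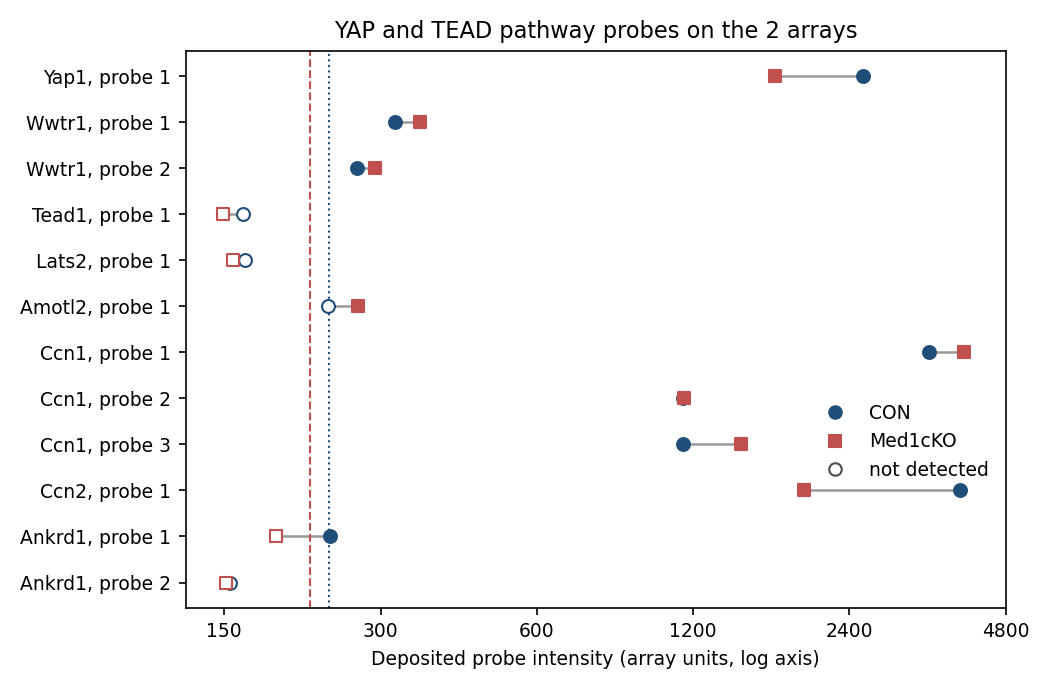
Deposited intensity of each of the 12 probes on the CON array (circles) and the Med1cKO array (squares), on a log axis, with open symbols where the probe was not detected. The dotted line marks the lowest intensity of any detected CON probe (239.2) and the dashed line that of the Med1cKO array (219.4). The Ccn2 and Yap1 squares lie left of their circles, and the Tead1 and Lats2 symbols are all open.

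Both arrays were of similar brightness, with median intensities of 197.6 for CON and 191.2 for Med1cKO. The brightest probe of the targeted gene Med1 read 793.6 in CON and 452.2 in Med1cKO, and a second probe read 294.0 and 224.6. The deleted exons were not given, so these probes do not check the deletion. All 8 basal keratinocyte markers were detected in both pools, with summed intensities of 163083 in CON and 141073 in Med1cKO. Of these 8, 7 had log2 ratios below 0 (54.3% of all detected genes), with a median of -0.20 and Krt5 the lowest at -0.48. Krt14 was the 1 above 0, at 0.09, and Itga6, the sorted integrin, was at -0.13. Cd34, the marker sorted against, was near background at 320.7 and 279.3. Markers of some other cell types read higher in the Med1cKO pool. Of 8 fibroblast markers 5 were detected, 4 of them in Med1cKO only. Of all 7955 detected genes, 528 were detected in Med1cKO only and 245 in CON only. The summed intensity over all 8 fibroblast markers was 1959 in CON and 4964 in Med1cKO. Most of the difference came from Dcn, which encodes the matrix proteoglycan decorin and read 178.2 and 2297, while Col1a2, Pdgfra and Mfap5 were detected in neither pool. Of 7 immune markers with a probe 6 were detected, all with ratios above 0 (45.6% of all detected genes). The sum over the 7 was 8373 and 13060. Most of that difference came from Thy1, which read 5975 and 9092, while Ptprc was detected in neither pool. Of the 6, 4 were at least 2-fold higher (3.95% of all detected genes) and 0 lower (1.81%). They were Cd3e (at least 3.49-fold), Cd3g (2.74-fold), Cd207 (2.87-fold) and H2-Aa (2.26-fold). Without background correction their folds were 1.90, 2.15, 1.68 and 1.695. The other Cd207 probe, detected in Med1cKO only, read 229.7 and 274.2. Of 7 endothelial markers with a probe 2 were detected by the probe that stands for the gene, both in Med1cKO only, with sums of 1217 and 1379. The other probe of 1 of them, Egfl7, was detected in CON only (250.6 and 204.6) and had a ratio of opposite sign. Pecam1, Cdh5 and Kdr were detected in neither pool. Of 8 smooth muscle and pericyte markers 3 were detected, with sums of 1998 and 2475, a difference that came from Acta2 at 494.9 and 969.9, while Cspg4 read 303.5 and 276.7 and Mcam 371.5 and 363.7. Of 6 melanocyte markers only Dct was detected, in Med1cKO. Fibroblasts and endothelial cells also express Ccn1 and Ccn2, and their part in the ratios below was not tested. Fewer cells of a type and less RNA per cell cannot be told apart in pooled RNA.

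Of the 2 coactivators, Yap1 read 2549 in the CON pool and 1725 in the Med1cKO pool on its single probe. Its log2 ratio was -0.52. Genes of similar level (796 in its bin, of 10 level bins) had a robust SD (scaled median absolute deviation) of 0.32, and 45 of them (5.7%) had a lower ratio than Yap1. That SD measures how genes scatter, not how replicates would. Wwtr1 was much closer to background, its brighter probe reading 320.0 in CON and 357.7 in Med1cKO. The other Wwtr1 probe read 270.1 and 292.7. Their log2 ratios of 0.37 and 0.35 were close to each other and smaller than the robust SD of 0.51 among genes of that level. Without background correction the brighter probe was 1.16-fold higher. The 2 paralogous coactivators thus had ratios of opposite sign, and the difference between them was not tested.

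Tead1 encodes one of the mouse TEAD factors that carry YAP and TAZ to DNA. Its only probe read 163.3 in CON and 149.1 in Med1cKO, with detection p-values of 0.456 and 0.840. Lats2 read 164.5 and 155.7, with detection p-values of 0.420 and 0.615. Neither probe was well above background in either pool, so no fold is given, and their transcript levels were not measurable here. Amotl2 lay at the edge of detection, reading 237.9 in CON (detection p 0.010) and 271.5 in Med1cKO (detection p 0). With the CON value raised to the lowest level of any detected probe on that array, Amotl2 was at least 1.48-fold higher in Med1cKO, a bound that holds on the background-corrected scale. Without that correction its ratio was 1.18-fold.

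Ccn1 (formerly Cyr61) and Ccn2 (formerly Ctgf) encode secreted matricellular proteins of the CCN family that bind integrins and heparan sulfate. Ccn2 read 3927 in CON and 1961 in Med1cKO on its single probe. The log2 ratio of -1.0 was 3.45 times the robust SD of 0.29 among 795 genes of similar level, and 3 of those genes (0.4%) had a lower ratio. The fold sat on the 2-fold line (2.00001), and it was 1.93 without background correction and below 2 in 5 of 8 alternative settings. The remaining settings change only the detection rule or the averaging of probes. They cannot alter the value of a single probe detected on both arrays. Ccn1 has 3 probes, all detected on both arrays. The brightest read 3410 in CON and 3980 in Med1cKO, the next 1148.4 and 1150.1, and the third 1147 and 1487. Every Ccn1 probe was thus at or above its CON value in Med1cKO. Their log2 ratios were 0.28, 0.09 and 0.51. Over 1778 genes the brightest 2 probes differed by a median of 0.18 and a 90th percentile of 0.56. The gap of the last 2 Ccn1 probes, which are not its brightest 2, was above that median and below that percentile. The brightest Ccn1 ratio equalled 0.98 times the robust SD at its level. Ccn1 and Ccn2 fell in the same level bin with ratios of opposite sign, and the difference between them was not tested.

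Ankrd1 encodes a nuclear and sarcomeric ankyrin repeat protein best known from muscle. Its brighter probe read 240.2 in CON, just above the lowest intensity of a detected probe on that array (239.2), and 188.3 in Med1cKO, where it was not detected (detection p 0.091). On the background-corrected scale the Ankrd1 reading in Med1cKO was thus lower by at least 1.17-fold. Without that correction its ratio was 1.23-fold. The measured log2 ratio of -0.93 rests on a value at background. The other Ankrd1 probe read 153.8 and 151.5 and was detected on neither array. Of 8 skeletal muscle markers 2 were detected, with Acta1, Ckm and Myh4 detected on neither array. The 2 had ratios above 0, opposite in sign to Ankrd1, and both were near background. Tnni2 read 245.0 in CON and 284.3 in Med1cKO. Mylpf, detected in Med1cKO only, read 209.2 and 258.6.

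**Figure D2:**
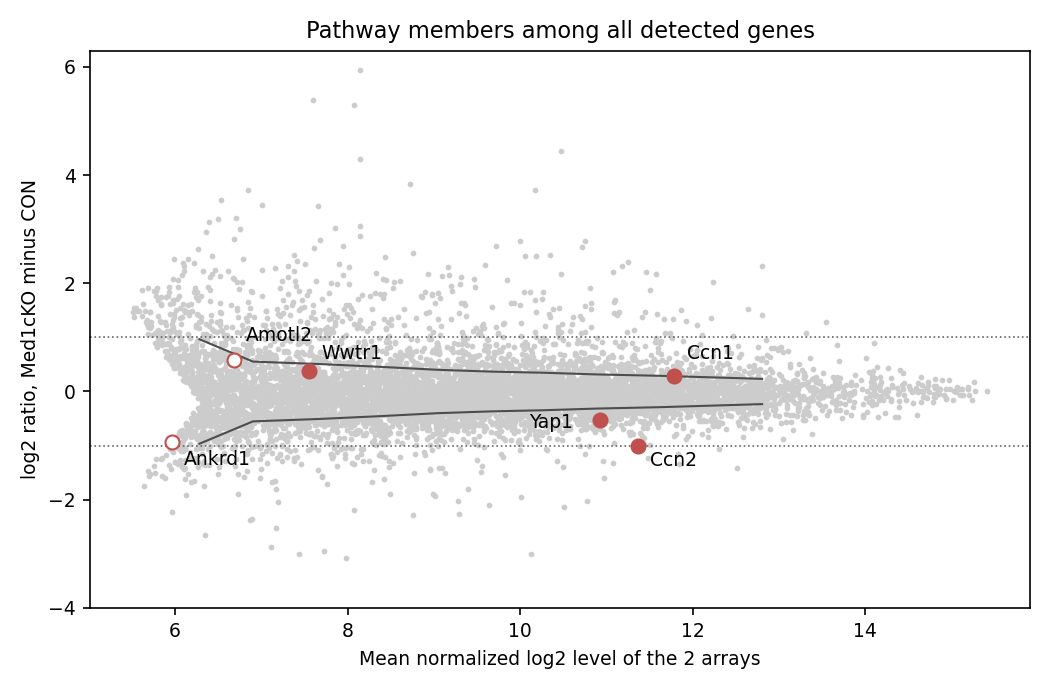
Each grey point is 1 of 7955 detected genes, by its mean normalized log2 level over both arrays and its log2 ratio, Med1cKO minus CON. Red circles are the 6 detected members, open where only 1 array detected them. The dark lines mark plus and minus the robust SD in 10 level bins and the dotted lines 2-fold. Ccn2 lies on the lower dotted line, and Ccn1, Wwtr1 and Ankrd1 lie within the robust SD.

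The genes whose levels on both arrays were nearest to those of Ccn2, by Euclidean distance in normalized log2 level over these 2 arrays, were Igfbp3, Mib2 and Ackr4, at distances of 0.11, 0.14 and 0.14. Igfbp3 encodes a secreted binding protein of insulin-like growth factors and is on the list of other YAP and TAZ targets described below. It read 4084 in CON and 2089 in Med1cKO. Mib2, a ubiquitin ligase of Notch ligands, read 3918 and 2152, and Ackr4, a chemokine scavenging receptor, 3832 and 2148. With 2 arrays such likeness describes levels in these pools only.

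TEAD factors recognise the core GGAATG, and the sequence just before the start of the target genes shows whether these letters occur there. RefSeq promoter sequences of mouse build GRCm38.p6 were found for 6 of the 8 members (all but Ccn2 and Tead1), and the 250 bases before the start were searched on both strands. At least 1 match was present in 5 of these 6 genes: Ccn1, Ankrd1, Amotl2, Yap1 and Wwtr1. Among 32851 such windows of all genes, 12.6% held at least 1 match and 1.02% held 2 or more. These shares are per window, while the 6 genes had 8 windows, so the count of genes is not in the same unit. The 3 target genes with a match are shown 5′ to 3′ on the gene's strand, with the core or its reverse complement CATTCC in capitals, since their ratios differ in sign. The window of Ccn1 is chr3:145649986-145650235 (minus strand), that of Ankrd1 chr19:36119845-36120094 (minus strand) and that of Amotl2 chr9:102717554-102717803 (plus strand).
Ccn1: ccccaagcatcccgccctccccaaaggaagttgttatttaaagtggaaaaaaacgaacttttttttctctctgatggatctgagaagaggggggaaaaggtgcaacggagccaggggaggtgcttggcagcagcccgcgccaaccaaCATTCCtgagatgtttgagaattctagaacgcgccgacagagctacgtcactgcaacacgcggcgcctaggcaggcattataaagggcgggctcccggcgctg
Ankrd1: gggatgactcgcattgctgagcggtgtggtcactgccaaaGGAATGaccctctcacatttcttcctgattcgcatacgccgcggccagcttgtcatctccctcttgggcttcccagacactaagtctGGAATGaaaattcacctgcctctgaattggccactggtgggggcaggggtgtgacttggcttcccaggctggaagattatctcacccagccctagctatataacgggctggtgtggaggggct
Amotl2: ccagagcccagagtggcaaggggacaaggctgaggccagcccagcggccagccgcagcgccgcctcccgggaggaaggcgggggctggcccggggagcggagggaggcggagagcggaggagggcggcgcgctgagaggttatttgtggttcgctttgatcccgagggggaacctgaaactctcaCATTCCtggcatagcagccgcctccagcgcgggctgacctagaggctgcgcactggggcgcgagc
The Ccn1 match begins 103 bases before the start and the Amotl2 match 65 bases before it, both on the opposite strand. Ankrd1 has 2 matches, 210 and 123 bases before its start. The AP-1 element TGANTCA, often found near TEAD sites, had 0 matches in the windows of these 6 genes and at least 1 in 6.75% of all windows. A match of letters is not a measured binding site, and both Ccn1 (log2 ratio 0.28) and Ankrd1 (-0.93, at background) hold the core.

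Other targets of YAP and TAZ were as mixed as the members. A list of 17 further genes of a widely used target signature had 14 with a probe and 12 detected. Of these 12, 2 were past 2-fold in the higher direction (3.95% of all detected genes) and 0 in the lower (1.81%). The 12 split evenly, with 6 log2 ratios above 0 and 6 below, and the median was -0.07 (all genes -0.04). Gadd45a, a growth arrest and stress gene that p53 also induces, read 837.0 in CON and 1701 in Med1cKO and was 2.40-fold higher, and its other probe was 2.32-fold higher. Rbms3, an RNA-binding protein gene, read 239.9 and 317.8 and was 2.02-fold higher, but 1.37-fold without background correction. Fjx1, which encodes a secreted kinase-like protein, was detected in Med1cKO only, reading 229.4 and 310.6. It was at least 1.95-fold higher on the corrected scale, but 1.40-fold without background correction. Igfbp3 stood at the other end, with a log2 ratio of -0.97. Smaller ratios below 0 were those of Tgfb2, a TGF-beta ligand, at -0.46, and Ptpn14, a phosphatase that binds YAP, at -0.36. Nuak2, a kinase, was at 0.87, and the receptor tyrosine kinase gene Axl at -0.28. These 4 were named after their values were seen.

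The upstream Hippo kinases had ratios on both sides of 0. Of 18 genes of the kinase module 11 had a probe and 8 were detected. Of these 8, 0 were at least 2-fold different in either direction, against 5.76% of all detected genes. With 4 above 0 and 4 below, their median log2 ratio was -0.07. Map4k4, a kinase that can activate LATS, read 327.0 in CON and 434.9 in Med1cKO (log2 ratio 0.78). Wwc1, the scaffold KIBRA, was at 0.46 and Stk38l, a relative of LATS, at -0.40. Mink1 was detected in CON only, reading 264.2 and 200.3, at least 1.501-fold lower on the corrected scale but 1.28-fold without background correction. Nf2, which encodes the upstream scaffold merlin, was not detected, and Lats1 and Stk3 have no probe under their symbols here.

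Junction and polarity regulators, which tie Hippo signalling to cell contacts, also had ratios on both sides of 0. Of 22 genes 13 were detected and 0 differed 2-fold, against 5.76% of all detected genes. Of the 13, 5 were above 0 and 8 below, and the median was -0.08. Tjp1, the tight junction protein ZO-1, had a log2 ratio of 0.75 with intensities of 398.8 and 542.4. Rassf1, a scaffold that binds the Hippo kinases, was at 0.74 with 3921 and 6374, and its other probe was at 0.69. Limd1, a LIM protein that inhibits LATS, was at -0.54, with 3897 in CON and 2621 in Med1cKO. Mpp5, the polarity scaffold PALS1, was detected in Med1cKO only, at least 1.09-fold higher.

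Of 6 other TEAD factors and cofactors with a probe 3 were detected. Vgll4 was the 1 at least 2-fold higher (3.95% of all detected genes), with 0 lower (1.81%). VGLL4 competes with YAP for TEAD. It read 317.7 in CON and 551.7 in Med1cKO and was 2.56-fold higher, or 1.81-fold without background correction. Tead2 and Tead3 were detected in Med1cKO only, as were 528 of all 7955 detected genes. Tead2 was at least 1.07-fold higher and Tead3, at 220.1 in CON and 227.0 in Med1cKO, has no fold to give. Tead4, Vgll1 and Vgll2 were detected on neither array, so no TEAD gene was detected in CON. A probe had to read 239.2 to be detected in CON and 219.4 in Med1cKO.

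Genes of proteins that hold YAP in the cytoplasm or mark it for degradation were all detected, 10 of 10 on both arrays. Of these 10, 0 were at least 2-fold different, against 5.76% of all detected genes. Of the 10, 8 were above 0 (45.6% of all detected genes), with a median log2 ratio of 0.22 (all genes -0.04). Sfn, the epidermal 14-3-3 sigma, had the largest ratio, 0.64, reading 6248 in CON and 9784 in Med1cKO. The casein kinase gene Csnk1d was at 0.38, although its other probes ran from -0.11 to 1.095, while Ywhae, another 14-3-3 gene, was at 0.37 and Ywhaz at -0.26. No other CCN gene was detected: Ccn4 read 157.9 and 177.7, and Ccn5 158.0 and 168.0.

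**Figure D3:**
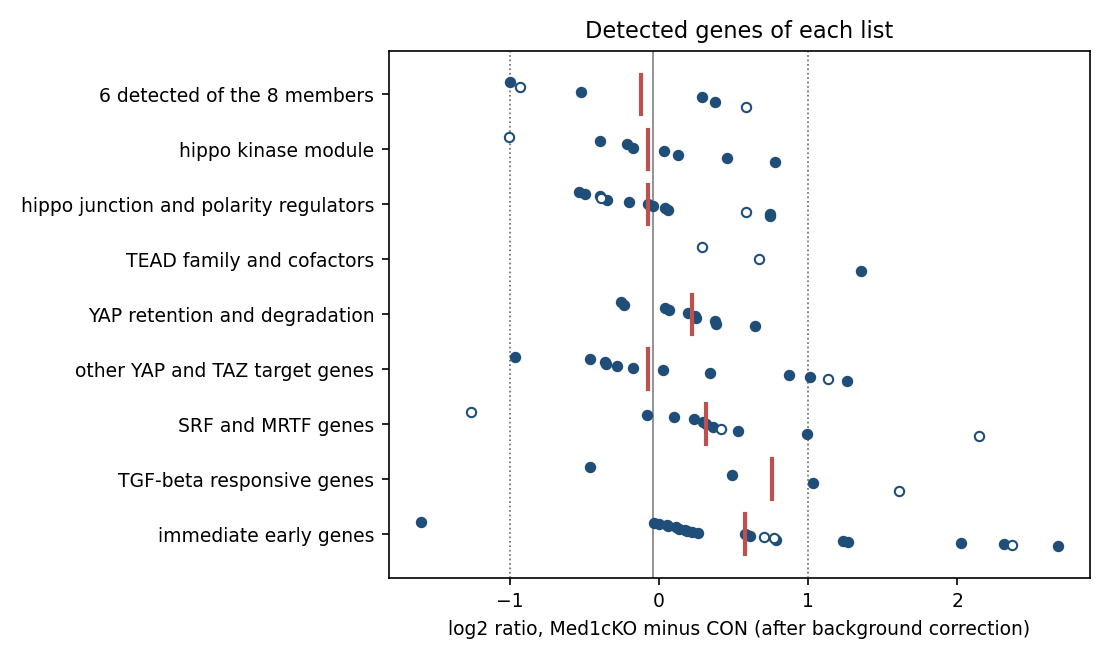
Log2 ratios, Med1cKO minus CON, of the detected genes of each list, 1 point per gene, open and at the measured value where 1 array only detected it. Red bars are medians of lists with at least 4 detected genes, the grey line is the median of all detected genes (-0.04) and the dotted lines mark 2-fold. The members, the kinase module, the junction regulators and the other targets have medians between -0.12 and -0.07, and the immediate early genes reach 2.68.

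Ccn1, Ccn2 and Ankrd1 are also regulated by serum response factor (SRF) with its actin-sensitive MRTF cofactors, by TGF-beta and, for Ccn1, as an immediate early gene, so lists of these programmes were read beside them. Of 16 SRF and MRTF genes 11 were detected, with 0 at least 2-fold different, against 5.76% of all detected genes. Of the 11, 9 were above 0 (45.6% of all detected genes), with a median log2 ratio of 0.31 (all genes -0.04). Tpm2, a tropomyosin, was at 0.99 (intensities 1052 and 1837) and Zyx, the focal adhesion protein zyxin, at 0.53. Fhl2, a LIM cofactor detected in Med1cKO only, was higher by at least 1.68-fold (uncorrected 1.74-fold). Mrtfb, detected in CON only, was at least 1.46-fold lower on the corrected scale but 1.35-fold without background correction. Of 8 TGF-beta responsive genes 4 were detected, with a median of 0.76 (0.26 with bounds). Of these 4, 1 was at least 2-fold higher (3.95% of all detected genes) and 0 lower (1.81%). The higher one was Skil, a feedback inhibitor of SMADs, 2.05-fold higher but 1.87-fold without background correction. Tgfbi, an abundant matrix protein gene, was at -0.47, with 21755 in CON and 15769 in Med1cKO, and its other probe at -0.97, with 8044 and 4174. Bhlhe40, a transcriptional repressor, was at 0.49. Tgm2, which encodes transglutaminase 2, was detected in Med1cKO only, at least 1.02-fold higher.

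Of 24 immediate early genes 23 were detected. Of these 23, 6 were past 2-fold in the higher direction (3.95% of all detected genes) and 1 in the lower (1.81%). Their median log2 ratio was 0.57 (all genes -0.04), or 0.22 where bounds replace the values of genes seen on 1 array only. Of the 23, 20 were above 0 (45.6% of all detected genes). Gadd45b read 833.6 in CON and 4332 in Med1cKO (6.39-fold higher) and Ier3 3423 and 16365 (4.98-fold). Hspa1a, a heat shock chaperone gene that the list also counts, read 2604 and 9938 (4.06-fold higher). Ier2, detected in Med1cKO only, read 233.9 and 549.2 and was at least 4.86-fold higher on the corrected scale, but 2.45-fold without background correction. Egr2 was 2.35-fold and Myc 2.41-fold higher, the latter 1.62-fold without background correction. Klf2 was the lower one, at 3.03-fold. The brightest genes of the list, Zfp36, Egr1, Dusp1 and Fos, had small log2 ratios of 0.22, 0.05, 0.17 and 0.0. Jun was at 0.78 and Junb at 0.61. Zfp36, Egr1, Dusp1, Fos, Jun and Junb were named after their values were seen.

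**Figure D4:**
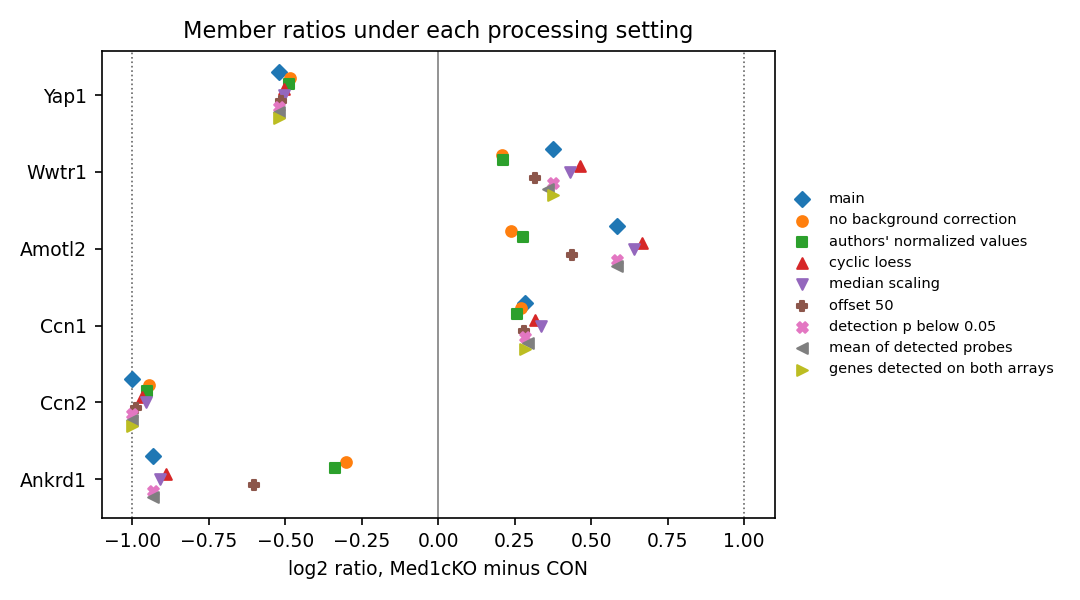
Log2 ratio, Med1cKO minus CON, of the 6 detected members under the reported processing (main) and 8 alternatives, 1 symbol per setting. All ratios keep their sign. Ccn2 runs from -1.0 to -0.95 and Ankrd1 from -0.93 to -0.30.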

How the data were processed

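Non-normalized probe intensity values and detection p-values of 2 arrays, as deposited by the authors, were used. Per the file headers the detection p-value belongs to each probe on its own array. The submitters' processing notes name GenomeStudio 2011.1. A second table, which the authors normalized by a method not given in the sources used here and deposited as linear intensity values, served as an alternative.

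Intensities were background-corrected with a normal plus exponential model inferred from the detection p-values, offset by 16, quantile normalized and log2-transformed with neqc of limma 3.58.1 in R 4.3.3. The procedure was run on simulated data with changes larger than 2-fold in genes well above background. That run does not show how changes near 2-fold or near background are recovered. Later steps used Python 3.11.15, pandas 2.3.3 and numpy 2.4.6. The number of arrays limits the precision.

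Of 25697 probes, 23978 had 1 gene symbol and 1719 none in the platform annotation, and 23962 were matched to RefSeq by Entrez ID. The probe of highest mean normalized level stood for its gene. Where only 1 array detected it, the other value was raised to the lowest normalized level of a detected probe there (log2 6.41 for CON, 6.20 for Med1cKO), giving a bound.

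The members and lists were chosen with earlier results of these data known. Genes named are all members, Med1, of each list the genes at least 2-fold different and up to 4 of largest absolute ratio, detected cell markers, and the 3 genes nearest to a member that differed 2-fold; clone names were left out. Of the detected markers only examples are printed. Genes that were not detected or have no probe are named outside this rule, after their values were seen.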

Additional observations from a re-analysis of the deposited data

How the results depend on the processing

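All 6 detected members kept the sign of their log2 ratio in the alternatives that gave a value (8 for Ccn1, Ccn2, Yap1 and Wwtr1, and 7 for Ankrd1 and Amotl2, which were not detected on both arrays). The Ccn2 ratio ran from -1.0 to -0.95, Yap1 from -0.52 to -0.48, Ccn1 from 0.26 to 0.34, Wwtr1 from 0.21 to 0.46, Amotl2 from 0.24 to 0.67 and Ankrd1 from -0.93 to -0.30. Since Ccn2 lay on the 2-fold line, the count of members at least 2-fold lower was 0 in 5 of 8 alternatives: without background correction, with the authors' normalized values, with cyclic loess, with median scaling and with an offset of 50. The remaining alternatives leave the ratio of a gene with 1 probe detected on both arrays, such as Ccn2 or Yap1, unchanged. Over all genes, 155 were at least 2-fold higher and 44 lower without background correction, 163 and 46 with the authors' normalized values, and 95 lower with an offset of 50, against 314 and 144. Of 168 list counts and medians under alternatives, 13 moved by more than 1.5 times or by more than the spread of similar genes. No paired analysis was possible because each group has 1 array, and no replicate could be left out. Near background (Ankrd1, Amotl2, Wwtr1) ratios depend on the correction.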
